A study of Mus musculus with 13 samples.

Results

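The genes described here support the daily work of Müller glia, the radial glial cells that span the retina. The list held 10 genes named for their known roles in these cells. Of these, 9 were analysed, of 29700 nuclear genes counted: Glul, Slc1a3, Kcnj10, Aqp4, Car14, Apoe, Clu, Crym and Dkk3. Sox9 was not analysed here. All 9 passed the expression filter that left 16782 genes to test, and their counts ran from 389 to 47822 reads in a library.

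Müller glia take glutamate up from the synapses and turn it into glutamine, carry potassium and water away from active neurons, buffer pH and supply lipid to neurons. Their endfeet face the vitreous and the blood vessels, where potassium and water channels are concentrated. In retinas that lose photoreceptors the same cells become reactive, a state known as gliosis, marked by intermediate filament and cytokine signalling genes.

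Polyadenylated RNA was sequenced from 1 retina of each of 13 mice, so each library was a different animal and all cell layers were mixed. The 4 wild-type mice (WT) were C57BL/6J animals aged 2 months on the base diet. The other 9 mice carried the Rpe65-/- genotype on a background labelled C57BL/6J, whose exact make-up the study leaves uncertain, and are a model of Leber congenital amaurosis (LCA) in which every cell lacks the retinoid isomerase of the pigment epithelium. Of these, 4 stayed on base chow (vehicle) and 5 ate chow holding tamsulosin, metoprolol and bromocriptine (TMB) from day 22 after birth, and both groups were collected at day 64. Tamsulosin and metoprolol block adrenergic receptors and bromocriptine activates dopamine receptors. No WT mouse received TMB, so the diet was compared only within the Rpe65-/- genotype. Libraries are named by labelled sex and number, for example WT F4.

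Levels of a gene are given as counts per 1000000 counts of the library (CPM). Total counts ran from 14155121 to 17186113 a library, of which 2.69% to 6.02% were mitochondrial. Rpe65 had 72 to 226 reads in WT, 1 to 8 in vehicle and 0 to 7 in TMB libraries. A deposited list of library names gives vehicle F1 the wild-type genotype, against its label, and it had 6 Rpe65 reads. WT F4 stood apart from the other WT libraries: its value on the first principal component, which held 38.78% of the variance, was -0.89, against -65.0 to -52.9 for the other WT libraries and -4.47 to 39.5 for the Rpe65-/- libraries. The library labelled vehicle F2 went against its labelled sex, with 0.0634 CPM of Xist and 88.8 CPM of the Y-linked Eif2s3y. Cone markers summed to 1107 to 1246 CPM in WT and to 100 to 171 CPM in the Rpe65-/- libraries. Calls of the 9 genes that changed without WT F4 or vehicle F2 are given beside the result.

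Promoters were read for the members with an entry in the RefSeq table (build GRCm38.p6), 5 of 9. They are shown because Glul, Kcnj10, Car14 and Apoe were called higher in vehicle retinas while Slc1a3 was not. Each run covers the 250 bases before a start site, 5′ to 3′ on the gene's strand, and capitals mark matches to the motifs searched on both strands: ACAAAG and ACAATG (SOX factors, the family of Sox9), AGGTCA (the nuclear receptor half-site, which thyroid hormone receptors also read) and TTC and GAA spaced by 3 bases (STAT factors).
Glul: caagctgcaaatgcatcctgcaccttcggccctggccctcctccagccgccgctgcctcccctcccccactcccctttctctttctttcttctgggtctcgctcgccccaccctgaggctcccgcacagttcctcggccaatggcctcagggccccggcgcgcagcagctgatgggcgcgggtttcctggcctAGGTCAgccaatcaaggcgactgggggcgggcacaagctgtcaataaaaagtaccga
Kcnj10: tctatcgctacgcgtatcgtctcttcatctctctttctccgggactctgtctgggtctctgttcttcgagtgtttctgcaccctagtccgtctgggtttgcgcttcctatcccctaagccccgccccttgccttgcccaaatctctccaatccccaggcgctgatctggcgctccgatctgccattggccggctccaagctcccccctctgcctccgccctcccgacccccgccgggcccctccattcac
Car14: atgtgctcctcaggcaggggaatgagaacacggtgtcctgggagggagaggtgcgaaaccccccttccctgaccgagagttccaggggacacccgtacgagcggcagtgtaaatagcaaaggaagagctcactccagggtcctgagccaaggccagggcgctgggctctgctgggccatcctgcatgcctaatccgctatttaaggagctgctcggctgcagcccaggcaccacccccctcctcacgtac
Apoe: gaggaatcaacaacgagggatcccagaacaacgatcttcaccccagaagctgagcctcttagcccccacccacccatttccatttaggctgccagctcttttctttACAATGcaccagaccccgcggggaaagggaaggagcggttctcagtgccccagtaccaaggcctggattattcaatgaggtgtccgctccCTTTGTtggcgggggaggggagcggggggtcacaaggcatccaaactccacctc
Slc1a3: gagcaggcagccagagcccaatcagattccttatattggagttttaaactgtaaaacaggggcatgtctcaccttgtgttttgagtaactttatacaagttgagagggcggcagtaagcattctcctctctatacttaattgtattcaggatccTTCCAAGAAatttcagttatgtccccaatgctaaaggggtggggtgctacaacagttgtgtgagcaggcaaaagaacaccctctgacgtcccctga

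These windows are chr1:153899679-153899928 on the + strand for Glul, chr1:172340960-172341209 on the + strand for Kcnj10, chr3:95904686-95904935 on the - strand for Car14, chr7:19699189-19699438 on the - strand for Apoe and chr15:8710808-8711057 on the - strand for Slc1a3. Apoe had 3 start sites in the table and the one farthest upstream is shown. The Glul window held AGGTCA 57 bases before the start, the Apoe window held ACAAAG on the reverse strand 54 bases before it and ACAATG 144 bases before it, and the Slc1a3 window held the STAT spacing 96 bases before it. The Car14 and Kcnj10 windows, and those of the other Apoe start sites, held none of the 4 motifs. Over all 32851 promoters of the same length, 16.5% held ACAAAG, 10.7% ACAATG, 14.0% AGGTCA and 7.02% the STAT spacing; none of the 4 was found in more than 1 of the 5 windows shown. GC content was 64.8% for Glul, 62% each for Kcnj10 and Car14, 57.2% for Apoe and 44.8% for Slc1a3.

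Levels of different genes were compared only per length, as CPM divided by the exon length in kilobases (RPKM). Glul stood highest in each group, at 553 ± 41.3 RPKM in WT (SD, n = 4), 739 ± 133 in vehicle (SD, n = 4) and 630 ± 28.3 in TMB (SD, n = 5), and its libraries did not overlap those of the next gene, Dkk3. Dkk3, Apoe and Clu followed, each overlapping the next: in WT they were at 228 ± 38.3, 148 ± 61.0 and 131 ± 45.6 RPKM. A gap without overlap then separated Clu from Slc1a3, at 27.5 ± 3.21 RPKM in WT. Aqp4, Car14 and Kcnj10 lay below Slc1a3 and overlapped their neighbours in WT, where they were at 24.9 ± 4.72, 17.4 ± 3.26 and 14.6 ± 1.10 RPKM. Crym was lowest in each group, at 9.55 ± 2.10 RPKM in WT, without overlap with Kcnj10 there, and at 19.2 ± 2.06 in vehicle and 14.0 ± 2.81 in TMB, where the 2 genes overlapped. In vehicle retinas Car14, at 28.9 ± 2.75 RPKM, lay above Aqp4, at 26.7 ± 2.73, but the 2 overlapped.

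Of the 9 genes, 5 were higher in vehicle Rpe65-/- retinas than in WT and none was lower: Crym, Apoe, Car14, Kcnj10 and Glul (edgeR's quasi-likelihood test, Benjamini-Hochberg adjusted p under 0.05, called from here on). Over all genes tested, 33.9% were called and 15.7% were called higher, and 7 members passed an unadjusted p under 0.05, as 47.4% of all genes did. Every vehicle library lay above every WT library for 4 members, as for 14.5% of all genes, and the reverse held for no member and 5.11% of all genes. The median change of the members was 0.36 on the log2 scale, against 0.017 over all genes. Clu, Dkk3, Slc1a3 and Aqp4 did not pass. In bulk retina, fewer or more cells of a type and less or more RNA per cell cannot be told apart.

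**Figure D1:**
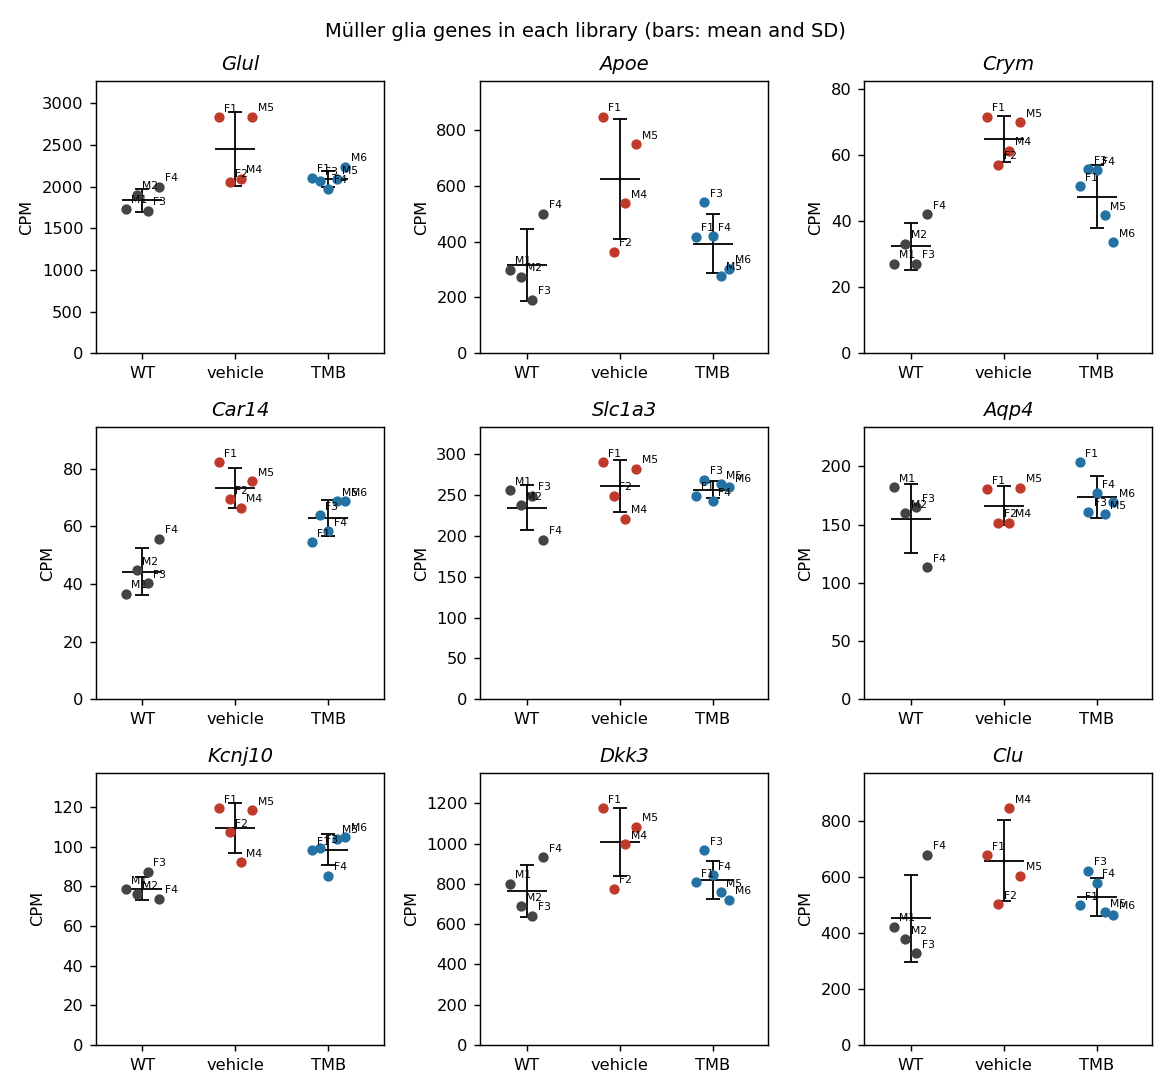
CPM (vertical axis, starting at 0) of the 9 Müller glia genes in each library of the WT (n = 4), vehicle (n = 4) and TMB (n = 5) groups, with each point marked by its library and bars for the mean and SD. Crym sits between 57.0 and 71.6 CPM in vehicle, above all WT libraries (27.1 to 42.2 CPM), while Slc1a3 and Aqp4 overlap in the 3 groups.

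Crym, which codes for mu-crystallin, a cytosolic protein that binds thyroid hormone, had the largest change of the members in the fit of all 13 libraries. It lies on chromosome 7, at chr7:120186380-120202111 (GRCm38), on the - strand. Its levels in WT M1, M2, F3 and F4 were 27.1, 33.2, 27.1 and 42.2 CPM. In vehicle F1, F2, M4 and M5 they were 71.6, 57.0, 61.3 and 69.9 CPM, so every vehicle library lay above every WT library, with WT F4 the nearest. The difference was 0.89 ± 0.16 on the log2 scale (SE; edgeR adjusted p = 0.00157), a 1.86-fold rise. It was called under all 25 alternative settings, from 0.78 to 1.08.

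In TMB F1, F3, F4, M5 and M6 Crym was at 50.5, 55.7, 55.3, 41.8 and 33.6 CPM. Every TMB library lay below every vehicle library, and the TMB range overlapped that of WT at its lower end, where M5 and M6 were. A separation in that direction was seen for 7.44% of all genes, and the reverse for 6.7%. Against vehicle the difference was -0.43 ± 0.15 (SE; edgeR unadjusted p = 0.00950, adjusted p = 0.253), and against WT it was 0.46 ± 0.15 (SE; adjusted p = 0.0665), so neither passed. Without WT F4 the change from vehicle was -0.44 with an adjusted p of 0.0230 and that from WT was 0.60 with an adjusted p of 0.00251 (edgeR), so both were then called. WT F4 belongs to neither group of TMB against vehicle, where it enters only through the fit shared by all libraries. With only the vehicle and TMB groups fitted, the change was -0.44 (edgeR adjusted p = 0.0362), and 14.7% of all genes were called. The range of the adjusted p over the 25 settings was 0.0181 to 0.507 against vehicle and 0.00251 to 0.226 against WT.

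Car14 codes for a membrane-bound carbonic anhydrase with its catalytic side outside the cell. It lies at chr3:95897768-95904691 (GRCm38, - strand), 63.7 Mb from Rpe65 on the same chromosome, and overlaps Aph1a on the other strand. Whether reads were counted by strand was not stated, so reads of the 2 genes where they overlap may be mixed. Car14 was at 36.7, 44.7, 40.2 and 55.7 CPM in WT M1, M2, F3 and F4 and at 82.2, 69.4, 66.4 and 75.6 CPM in vehicle F1, F2, M4 and M5, again without overlap. The rise was 0.62 ± 0.12 (SE; edgeR adjusted p = 0.00256), or 1.54-fold, and it was called under all 25 settings, from 0.50 to 0.75.

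Car14 was the only one of the 9 genes called in TMB retinas against WT. Its TMB values were 54.5, 63.8, 58.3, 68.8 and 68.8 CPM in F1, F3, F4, M5 and M6, all above WT except F1, which lay just below WT F4. The rise was 0.42 ± 0.11 (SE; edgeR adjusted p = 0.0294). Leaving out WT M1, WT M2, WT F3, TMB F3, TMB M5 or TMB M6 ended the call, at adjusted p of 0.121, 0.0773, 0.0995, 0.0581, 0.0708 and 0.0821, while leaving out WT F4 gave 0.53 with an adjusted p of 0.000438 (edgeR). From vehicle to TMB the change was -0.20 ± 0.11 (SE; edgeR adjusted p = 0.312), and the groups overlapped.

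Kcnj10 codes for the inwardly rectifying potassium channel of Müller glia, through which potassium leaves the endfeet. Located at chr1:172341210-172374085 (GRCm38, + strand), it was at 78.6, 75.9, 87.3 and 73.7 CPM in WT M1, M2, F3 and F4. Vehicle F1, F2, M4 and M5 held 119, 107, 92.3 and 119 CPM, all above WT. The rise was 0.36 ± 0.10 (SE; edgeR adjusted p = 0.0160). Its call was lost narrowly without WT M2, vehicle F1 or vehicle M5, at adjusted p of 0.0521, 0.0523 and 0.0510. TMB libraries held 98.3, 99.3, 85.3, 104 and 105 CPM, between the other groups and overlapping both, and neither difference passed (0.23 ± 0.10 against WT, adjusted p = 0.148; -0.13 ± 0.09 against vehicle, adjusted p = 0.416; SE, edgeR).

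Aqp4, the water channel that shares the endfoot membrane with Kcnj10, did not follow it. It lies on chromosome 18 and overlaps a gene on the other strand. Its values were 182, 160, 165 and 113 CPM in WT M1, M2, F3 and F4, 180, 152, 152 and 182 CPM in vehicle F1, F2, M4 and M5 and 203, 161, 177, 159 and 169 CPM in TMB F1, F3, F4, M5 and M6. WT F4 was the lowest of the 13 libraries and the groups overlapped throughout. The change in vehicle was -0.016 ± 0.13 (SE; edgeR adjusted p = 0.929). After the trend of each library with GC content was removed it was 0.35 ± 0.08 with an adjusted p of 0.00670, the only one of 25 settings in which Aqp4 was called.

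Glul codes for glutamine synthetase, the enzyme that turns glutamate into glutamine and in the retina is found in Müller glia. It lies at chr1:153899944-153909723 (GRCm38, + strand) and overlaps Teddm2 on the other strand. Glul was at 1736, 1904, 1713 and 2000 CPM in WT M1, M2, F3 and F4 and at 2836, 2050, 2093 and 2841 CPM in vehicle F1, F2, M4 and M5. All vehicle libraries exceeded all WT libraries, but F2 and M4 lay close to WT F4 and only F1 and M5 were far above. The rise was 0.30 ± 0.11 (SE; edgeR adjusted p = 0.0398). It was not called without WT M1, WT M2, WT F3, vehicle F1, vehicle M5 or TMB M5, at adjusted p of 0.101, 0.0805, 0.100, 0.121, 0.133 and 0.0521. TMB libraries held 2104, 2070, 1976, 2087 and 2238 CPM, a narrow range at the lower end of the vehicle values, and their change was 0.10 ± 0.10 against WT (adjusted p = 0.561) and -0.21 ± 0.10 against vehicle (adjusted p = 0.283; SE, edgeR).

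Slc1a3 codes for the main glutamate transporter of Müller glia, which feeds glutamate to the Glul enzyme. It lies at chr15:8634124-8710764 (GRCm38, - strand) and overlaps Gm37310. Its values were 256, 238, 249 and 195 CPM in WT M1, M2, F3 and F4, 290, 249, 221 and 282 CPM in vehicle F1, F2, M4 and M5 and 249, 269, 243, 263 and 259 CPM in TMB F1, F3, F4, M5 and M6. As for Aqp4, WT F4 was lowest and the groups overlapped. The change in vehicle was 0.038 ± 0.10 (SE; edgeR adjusted p = 0.783), and Slc1a3 was called in none of the 25 settings in any comparison.

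Apoe codes for the main lipid carrier that glia secrete, at chr7:19696109-19699188 (GRCm38, - strand). It was at 299, 275, 192 and 500 CPM in WT M1, M2, F3 and F4 and at 848, 365, 538 and 749 CPM in vehicle F1, F2, M4 and M5. WT F4 lay above vehicle F2, so the groups overlapped, and the spread within a group was the widest of the members, with a coefficient of variation of 41.3% in WT and 34.6% in vehicle. The rise was 0.87 ± 0.28 (SE; edgeR adjusted p = 0.0287), 1.83-fold. Without WT F4 it was 1.17 with an adjusted p of 0.000727, without vehicle F2 it was 1.05 with an adjusted p of 0.0141, and it was not called without WT M1, WT M2, WT F3, vehicle F1 or vehicle M5, at adjusted p of 0.0734, 0.0810, 0.0916, 0.0939 and 0.0777.

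Microglia, which also make Apoe, had summed marker levels of 26.4 to 34.5 CPM in WT, 45.8 to 58.6 in vehicle and 38.7 to 47.6 in TMB. Of the 10 microglia markers, 5 were called higher in vehicle against WT, none was called in TMB against WT and no listed marker was at 0 in all libraries. Their part in the Apoe result was not tested. In TMB F1, F3, F4, M5 and M6 Apoe was at 418, 542, 420, 279 and 303 CPM. These values overlapped both other groups, and the change from vehicle was -0.65 ± 0.26 (SE; edgeR unadjusted p = 0.0256, adjusted p = 0.254). Without WT F4, which is in neither the vehicle nor the TMB group, the change was again -0.65, with an adjusted p of 0.0437 (edgeR). Without both WT F4 and vehicle F2 the adjusted p was 0.00914 (edgeR). Apoe in TMB against WT was at 0.52 without WT F4 (adjusted p = 0.0882) and was called without both libraries, at 0.52 with an adjusted p of 0.0430.

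Clu codes for clusterin, a secreted chaperone and lipid carrier, at chr14:65968483-65981547 (GRCm38, + strand). It was at 421, 378, 326 and 678 CPM in WT M1, M2, F3 and F4, at 676, 501, 844 and 603 CPM in vehicle F1, F2, M4 and M5 and at 499, 621, 579, 474 and 464 CPM in TMB F1, F3, F4, M5 and M6. Vehicle M4 was highest and WT F4 lay second of all libraries. The change in vehicle was 0.43 ± 0.19 (SE; edgeR adjusted p = 0.0869), and without WT F4 it was 0.68 with an adjusted p of 0.000491. TMB differed by 0.14 ± 0.18 from WT (adjusted p = 0.654) and by -0.29 ± 0.18 from vehicle (adjusted p = 0.352; SE, edgeR). Without WT F4, Clu was called higher in TMB against WT (adjusted p = 0.0267). Without both WT F4 and vehicle F2 it was called lower in TMB against vehicle (adjusted p = 0.0245; edgeR). Lens markers summed to 2246 CPM in vehicle M4 and 847 CPM in WT F4, against 1.05 to 269 CPM in the other 11 libraries. Their part in the Clu values was not tested.

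Dkk3 codes for a secreted protein of the Dickkopf family, whose other members inhibit Wnt signalling, at chr7:112116017-112159057 (GRCm38, - strand). Its values were 802, 690, 642 and 931 CPM in WT M1, M2, F3 and F4, 1176, 777, 996 and 1084 CPM in vehicle F1, F2, M4 and M5 and 808, 966, 844, 758 and 722 CPM in TMB F1, F3, F4, M5 and M6. WT F4 was again the highest WT library and vehicle F2 the lowest vehicle library. The change in vehicle was 0.28 ± 0.13 (SE; edgeR adjusted p = 0.0961). It was called without WT F4, at 0.38 with an adjusted p of 0.0116, and without vehicle F2, at 0.37 with an adjusted p of 0.0347 (edgeR). TMB differed by 0.0054 ± 0.12 from WT (adjusted p = 0.977) and by -0.28 ± 0.12 from vehicle (adjusted p = 0.263; SE, edgeR). Without both WT F4 and vehicle F2, Dkk3 was called lower in TMB against vehicle (edgeR adjusted p = 0.0134).

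**Figure D2:**
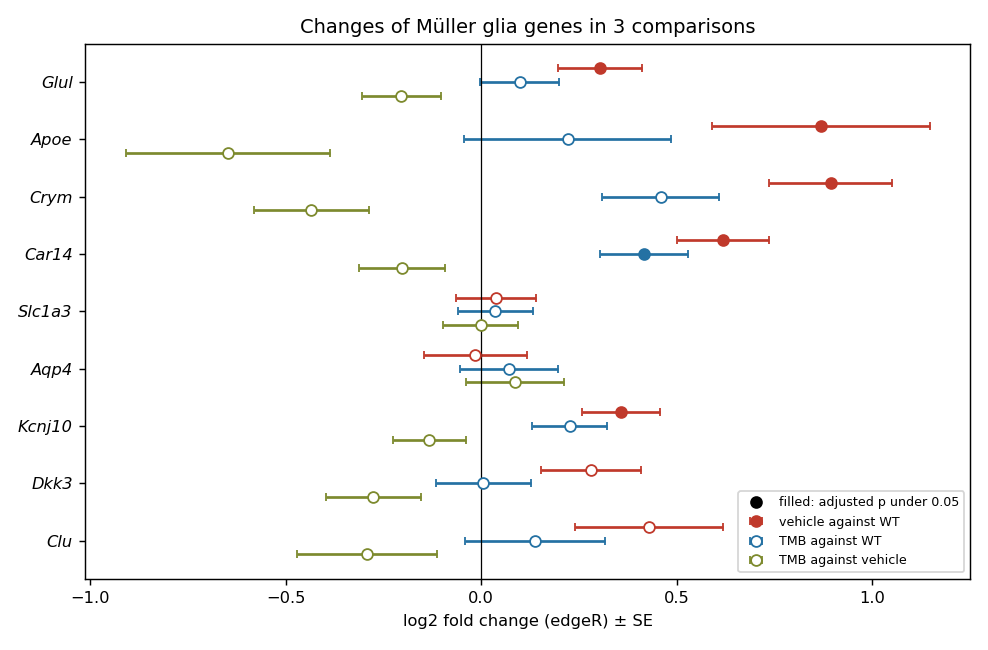
Log2 fold change (horizontal axis, edgeR, bars for the SE) of the 9 Müller glia genes in vehicle against WT, TMB against WT and TMB against vehicle, with filled points for an adjusted p under 0.05. Filled points stand for 5 genes in vehicle against WT, for Car14 alone in TMB against WT and for none in TMB against vehicle.

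In TMB against WT, Car14 alone of the 9 was called, where 9.53% of all genes were called and 4.51% were called higher and 5.02% lower, and 3 members passed an unadjusted p under 0.05, as 25.9% of all genes did. The median change of the members was 0.14, against -0.0027 over all genes, and no member separated the 2 groups without overlap, where every TMB library was above WT for 8.65% of all genes and below it for 3.15%. In TMB against vehicle, none of the 9 was called, and none of the 16782 genes was (edgeR, 0% called). At an unadjusted p under 0.05 there were 3 members, Crym, Apoe and Dkk3, and 3064 genes, or 18.3%. DESeq2 called 65 genes and limma 0, and neither called a member. Of the 9 members, 8 had a negative change, with a median of -0.21 against 0.00052 over all genes. The comparisons with WT and with vehicle share libraries, so their values are set side by side only.

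The count of members called moved with single libraries. Without WT F4, 7 of 9 were called in vehicle against WT (Clu and Dkk3 in addition), 3 in TMB against WT (Car14, Crym and Clu) and 2 in TMB against vehicle (Apoe and Crym, both lower). The shares of all genes called rose as well, to 55.6%, 38% and 16% in the 3 comparisons. WT F4 is in neither group of TMB against vehicle. With only those 2 groups fitted, 1 member and 14.7% of all genes were called. Without both WT F4 and vehicle F2 the members called were 7, 4 and 4, and the shares of all genes were 55.9%, 39.1% and 20.2%. Without vehicle F1, vehicle M5 or WT M2, 2 members were called in vehicle against WT, Crym and Car14, where 18.5%, 19.9% and 18% of all genes were called. Summed over the 9 genes, the level was 3917 ± 482 CPM in WT (SD, n = 4), 5419 ± 895 in vehicle (SD, n = 4) and 4473 ± 230 in TMB (SD, n = 5). The lowest vehicle library, F2 at 4327 CPM, lay below WT F4 at 4589 CPM.

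Within the WT group, the members divided. WT F4 was the highest WT library for Glul, Apoe, Crym, Car14, Dkk3 and Clu and the lowest for Slc1a3, Aqp4 and Kcnj10. Genes with a high GC content stood higher in WT F4 as well: the mean centred log2 level of the GC-richest 20% of genes was 0.28 in WT F4, -0.49 to -0.33 in the other WT libraries, 0.12 to 0.33 in vehicle and -0.19 to 0.13 in TMB. The GC content of the longest transcript was 41.4% for Aqp4 and 45.7% for Slc1a3, the lowest of the members, and 55.6% for Clu and 59.5% for Apoe, with 48.4% to 51.4% for the other 5. The median over the genes tested was 49.2%.

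**Figure D3:**
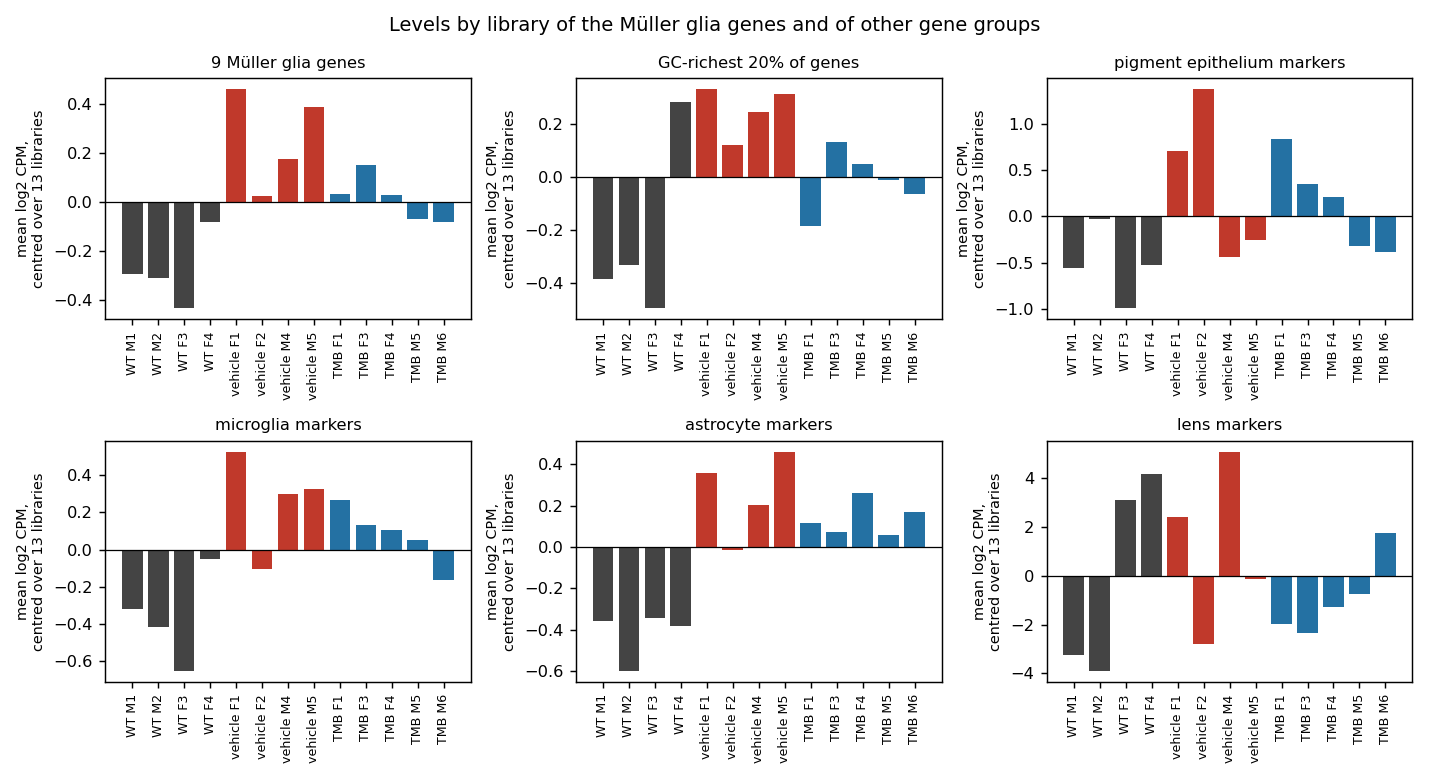
Mean log2 CPM, centred over the 13 libraries (vertical axis), of the 9 Müller glia genes, of the GC-richest 20% of genes and of 4 marker lists, with 1 bar a library in grey for WT, red for vehicle and blue for TMB. The marker lists are those of pigment epithelium, microglia, astrocytes and lens. CPM were scaled by library totals for the 9 Müller glia genes and by TMM in the other panels. GC-rich genes stand at 0.28 in WT F4, against -0.49 to -0.33 in the other WT libraries, and pigment epithelium markers are highest in vehicle F2.

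Removing that GC trend from each library changed the members unequally. The change in vehicle against WT moved from 0.87 to 0.36 for Apoe (edgeR adjusted p = 0.187) and from 0.43 to 0.11 for Clu (adjusted p = 0.545). It moved by 0.37 upward for Aqp4 and from 0.038 to 0.20 for Slc1a3 (adjusted p = 0.0931). Crym, Kcnj10 and Glul, near the median GC content, moved by at most 0.04, to 0.92, 0.32 and 0.29, and Car14 moved from 0.62 to 0.50. All 9 changes were then above 0, with 4 called (Crym, Car14, Aqp4 and Kcnj10), where 19.4% of all genes were called. In TMB against vehicle all 9 were below 0, with none called, as 0.0119% of all genes were.

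**Figure D4:**
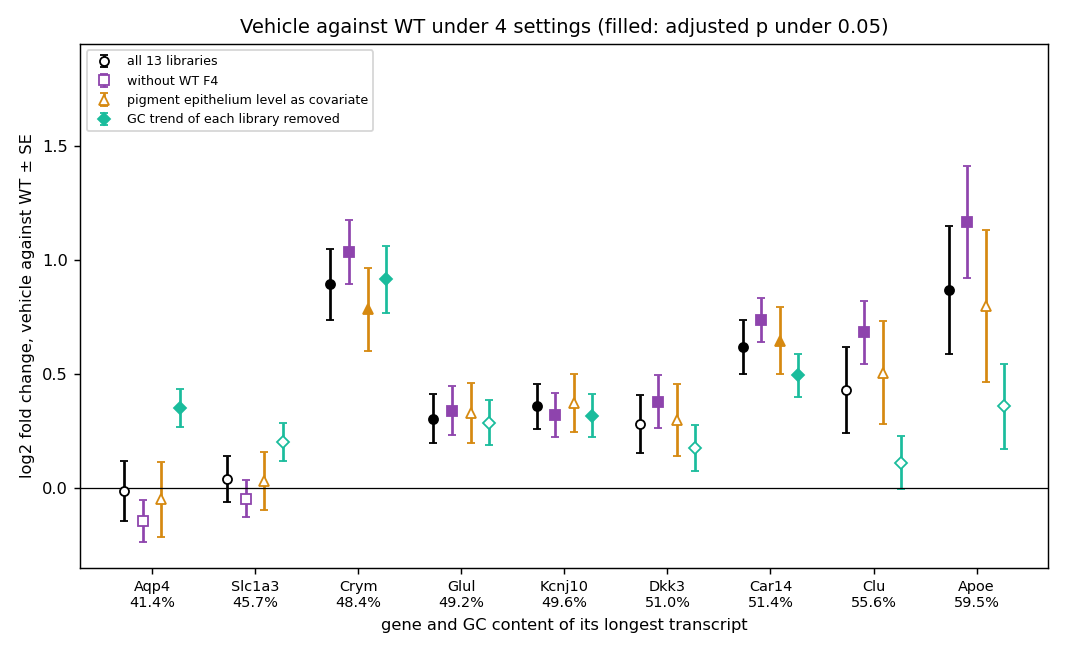
Log2 fold change in vehicle against WT (vertical axis, bars for the SE) of the 9 Müller glia genes, ordered by GC content (horizontal axis), with all 13 libraries, without WT F4, with the pigment epithelium level as a covariate and with the GC trend removed. Filled points have an adjusted p under 0.05, and Crym and Car14 are filled in all 4 settings.

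Pigment epithelium RNA, which clings to dissected retinas, also varied among libraries. Its markers summed to 51.9 to 114 CPM in WT, 89.4 to 357 in vehicle and 85.5 to 254 in TMB, with the most in vehicle F2. With the level of these markers as a covariate, Crym (0.78) and Car14 (0.65) were still called in vehicle against WT, and Kcnj10 (adjusted p = 0.0533), Glul (0.0868) and Apoe (0.0966) were not, although their changes of 0.37, 0.33 and 0.80 were close to those without it (edgeR). Astrocytes, which share several of these genes, had marker sums of 50.9 to 63.3 CPM in WT, 84.7 to 156 in vehicle and 95.5 to 118 in TMB, without overlap of WT with either group. Gfap, which reactive Müller glia also make, is among these 5 markers and held 94.0 of the 156 CPM in vehicle M4. The 4 other markers summed to 35.1 to 41.4 CPM in WT, 47.4 to 62.3 in vehicle and 49.1 to 53.1 in TMB, again without overlap of WT with either group. Their part in the results was not tested.

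Ratios within a library do not depend on its scaling. Relative to the mean log2 level of the other 8 members, Crym rose by 0.54 from WT to vehicle without overlap of the groups, from -3.04 ± 0.21 (SD, n = 4) to -2.50 ± 0.05 (SD, n = 4). Slc1a3 and Aqp4 stood 0.44 and 0.48 lower against the other members in vehicle than in WT, and Apoe stood 0.51 higher, each with overlap. The ratios were not corrected for the GC trend of a library. Aqp4 and Slc1a3 had the lowest GC content of the members and Apoe the highest. In the fit with that trend removed, their changes in vehicle against WT were 0.35, 0.20 and 0.36. No test was made of these ratios.

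Genes that work beside the members divided between higher and lower in vehicle against WT. All genes tested divided as well, with 15.7% called higher and 18.3% called lower. Among 9 genes of transmitter handling, 3 were called higher and 1 lower, with a median of -0.031. The higher ones included the GABA transporter Slc6a11 (0.45 ± 0.12, SE, edgeR adjusted p = 0.0143) and the glycine transporter Slc6a9 (0.53 ± 0.13, adjusted p = 0.00857). The lower one was Slc1a2, a glutamate transporter found in cones and bipolar cells of the retina (-0.35 ± 0.10, adjusted p = 0.0186). None of the 9 was called in TMB against WT.

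Among 12 genes of water and potassium handling and endfoot anchoring, 3 were higher and 3 lower. Hepacam, an adhesion molecule that localises Mlc1, rose by 1.19 ± 0.24 in vehicle (SE; edgeR adjusted p = 0.00414) and by 1.03 ± 0.24 in TMB (adjusted p = 0.0124), without overlap with WT. Mlc1, a membrane protein of endfeet, rose by 0.48 ± 0.13 (adjusted p = 0.0151). Dmd, the dystrophin of the anchoring complex, also found in photoreceptor terminals, fell by 0.71 ± 0.16 (adjusted p = 0.00659).

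Among 8 genes of acid-base and lactate transport, to which Car14 is related, 2 were higher and 2 lower. Slc4a7, a bicarbonate transporter of photoreceptors, fell by 0.77 ± 0.14 (SE; edgeR adjusted p = 0.00197) and Slc16a1, a lactate transporter, by 0.36 ± 0.08 (adjusted p = 0.00762). Slc16a1 was also lower in TMB retinas, by -0.38 ± 0.08 (adjusted p = 0.00625). Bsg, the partner of lactate transporters, was higher (0.39 ± 0.14, adjusted p = 0.0457), but it was at -0.023 after the GC trend was removed.

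Around the lipid carriers Apoe and Clu, 12 genes of lipid transport held 3 higher and 3 lower in vehicle. The receptors Lrp1 (0.52 ± 0.15, SE, edgeR adjusted p = 0.0178) and Scarb1 (0.37 ± 0.12, adjusted p = 0.0256) were higher. The receptor Vldlr (-0.48 ± 0.10, adjusted p = 0.00404) and the lipase Lpl (-0.58 ± 0.13, adjusted p = 0.00654) were lower. Of 5 genes of glial retinoid handling, Rlbp1, the retinaldehyde-binding protein of Müller glia and pigment epithelium, rose by 0.53 ± 0.12 (adjusted p = 0.00659) and Rgr, an opsin of the same cells, by 1.79 ± 0.43 (adjusted p = 0.00839). Rgr was at 190 CPM in vehicle F2 and at 37.8 to 57.3 CPM in the other vehicle libraries, against 15.9 to 32.3 CPM in WT. Without vehicle F2 its rise was 0.89 (adjusted p = 0.00806), and with the pigment epithelium level as a covariate it was 0.72 and not called (adjusted p = 0.121), while Rlbp1 was called in both, at 0.58 and 0.50 (adjusted p = 0.00802 and 0.0370; edgeR). Of 10 pigment epithelium markers, 4 were called higher in vehicle against WT, with a median of 0.88. Their sum, like Rgr, was highest in vehicle F2, while Rlbp1 was at 445 CPM there and at 608, 405 and 584 CPM in vehicle F1, M4 and M5. The part of pigment epithelium RNA in these 2 results was not tested.

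Crym binds thyroid hormone, and of 9 genes of that pathway 1 was higher and 3 were lower in vehicle against WT. The receptor Thrb fell by 0.74 ± 0.12 (SE; edgeR adjusted p = 0.00113), the transporter Slco1c1 by 0.70 ± 0.15 (adjusted p = 0.00482) and the activating deiodinase Dio2 by 0.41 ± 0.13 (adjusted p = 0.0308). Thrb, which cones express, and Slco1c1 were lower in TMB against WT too, at -0.44 ± 0.12 and -0.53 ± 0.14 (adjusted p = 0.0261 and 0.0267). The receptor Thra was higher, at 0.45 ± 0.15 (adjusted p = 0.0361), and at -0.086 once the GC trend was removed.

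For Dkk3, 10 genes of the Wnt pathway and its secreted inhibitors held 4 higher and none lower, with a median of 0.32. These were Axin2, a target of the pathway (0.67 ± 0.13, SE, edgeR adjusted p = 0.00321), the Dickkopf receptor Kremen1 (0.44 ± 0.12, adjusted p = 0.0137), the secreted inhibitor Sfrp5 (1.80 ± 0.49, adjusted p = 0.0149) and the co-receptor Lrp5 (0.64 ± 0.18, adjusted p = 0.0186). None was called in TMB against WT. Of 12 glial transcription factors and Notch genes, 4 were higher in vehicle, the transcription factors Nfix (0.81 ± 0.19), Lhx2 (0.50 ± 0.14) and Sox8 (0.50 ± 0.15) and the receptor Notch1 (0.47 ± 0.14), with adjusted p of 0.00817 to 0.0221, and none in TMB.

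Among 10 other markers of Müller glia, 4 were higher in vehicle against WT and none lower, with a median of 0.42: Prdx6, Gnai2, Fxyd1 and Dbi. Prdx6, an antioxidant peroxidase, rose by 0.57 ± 0.11 in vehicle (SE; edgeR adjusted p = 0.00225) and by 0.43 ± 0.10 in TMB (adjusted p = 0.0160), the only one of the 10 called there. Gliosis genes had the largest share of called genes of the 10 lists. Of 14, 7 were higher and 1 was lower in vehicle against WT (median 0.73), and 6 were higher and 1 lower in TMB against WT (median 0.55). Gfap, the intermediate filament of reactive glia, rose by 1.56 ± 0.23 and 1.37 ± 0.23 (adjusted p = 0.000478 and 0.00116), and Stat3, a transcription factor of cytokine signalling, by 0.86 ± 0.09 and 0.89 ± 0.09 (adjusted p = 2.03e-05 and 9.04e-06). None of the genes in these 10 lists was called in TMB against vehicle (edgeR).

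The calls of these neighbouring genes in vehicle against WT varied in how firmly they stood. Under 24 alternative settings Bsg was not called in 16, Slc1a2, Notch1 and Thra in 9 each, Dio2 and Sox8 in 8 each, and Lrp1, Lrp5, Scarb1 and Dbi in 7 each. Dmd, Slc4a7, Lpl, Vldlr, Nfix, Thrb, Axin2, Prdx6, Fxyd1, Gfap and Stat3 were called in all 24. Removing the GC trend left Lhx2 at 0.00083, Notch1 at 0.060, Lrp1 at 0.079 and Slc16a1 at -0.087 (edgeR adjusted p of 0.996, 0.635, 0.432 and 0.555). In that setting 19.4% of all genes were called. The Wnt list then held 1 higher, and transmitter handling and the thyroid hormone pathway each held 0 higher and 1 lower. Gliosis genes held 7 higher and 0 lower. Without WT F4 and vehicle F2 the lists held more calls: 9 gliosis genes were then higher and 2 lower in vehicle against WT, and 8 glial transcription factors and Notch genes were higher and 1 lower. Over all genes the share called rose from 33.9% to 55.9% in that setting. In TMB against vehicle these 10 lists held none called with all libraries, but without those 2 libraries 4 other markers of Müller glia and 4 glial transcription factors and Notch genes were lower, and no gliosis gene was called (edgeR). Transmitter handling and the Wnt list then held 3 lower each, and glial retinoid handling 1. The endfoot, acid-base, lipid and thyroid hormone lists each held 1 higher and 2 lower. Over all genes 20.2% were called there.

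**Figure D5:**
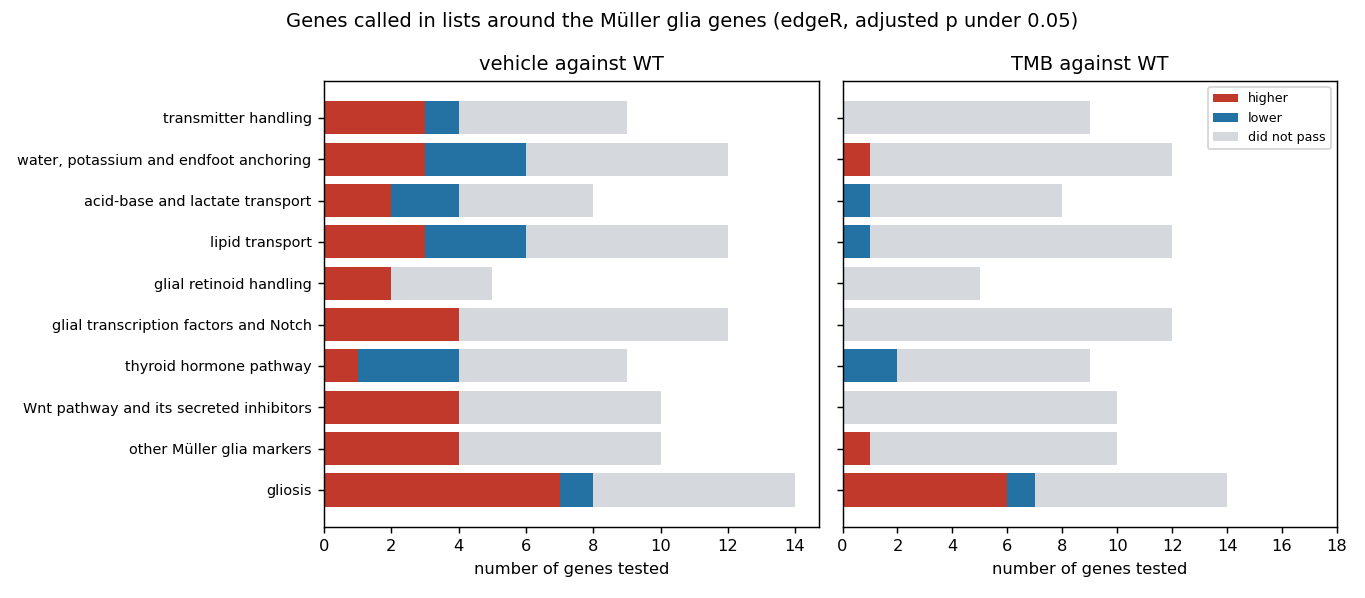
Number of genes tested (horizontal axis) in 10 lists of genes around the Müller glia genes, with red for those called higher, blue for those called lower and grey for those that did not pass, in vehicle against WT and in TMB against WT (edgeR, adjusted p under 0.05). Gliosis genes show 7 higher and 1 lower in vehicle and 6 higher and 1 lower in TMB.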

How the data were processed

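Members and gene lists were chosen with earlier results of these data known. The deposited values were raw read counts per gene, made by the authors with Trimmomatic, STAR and HTSeq on GRCm38 (tools named in the submitters' processing notes; versions from the study's methods: FastQC 0.11.9, Trimmomatic 0.40, STAR 2.7.11b, RSeQC 5.0.1 and HTSeq 2.0). The strand setting of the counting was not stated. Deposited columns of the authors' own comparisons (mean, log2 fold change, error and p-values) were not used.

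CPM was computed as the count over the total of nuclear and mitochondrial counts, and RPKM from the exon length of GENCODE M21. Differences were tested on nuclear counts with edgeR 4.0.16 (R 4.3.3; quasi-likelihood fit over 13 libraries in 3 groups, TMM scaling, default expression filter, Benjamini-Hochberg adjustment over 16782 genes, threshold 0.05), tested first on simulated data. TMM scaling differs from library totals, so fold changes are not ratios of mean CPM. The value of 3 counts was 0.175 to 0.212 CPM. Counting error of the members was at most 5.07% in a library. Each library was 1 mouse. Alternatives were DESeq2 1.42.0, limma 3.58.1, other scalings and filters, covariates, the replicate block, the GC trend and leaving out each library. From each list, up to 4 called genes with the smallest adjusted p in vehicle against WT were eligible to be named. Sox9 and a few listed genes were not analysed here, and some eligible genes are not reported here. The series design text gives 3 WT mice, while the labels give 4, all used here; a deposited list of library names leaves out WT M1 and gives vehicle F1 the wild-type genotype, and the labels were followed. Growth and treatment notes on the samples describe another mouse model and were not used.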

Additional observations from a re-analysis of the deposited data

How the results depend on the processing

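Of 675 values of the 9 members under 25 alternatives, 618 kept their side of the threshold, 32 lost a call and 24 gained one. The other, Aqp4 in vehicle against WT, turned from -0.016 to 0.35 and was called when the GC trend was removed. In all, 32 of the 675 changed sign, of Aqp4, Slc1a3 or Dkk3, all of them values of at most 0.087 in size that were not called with all libraries. Of the values of the other genes followed, 2582 kept their side, 148 lost a call, 66 gained one, and 2 turned without the GC trend, Bsg and Thra, to -0.023 and -0.086. Members called in vehicle against WT numbered 5, and 3 with only the 2 groups compared, 3 with the replicate block and 2 with the pigment epithelium level as covariate; leaving out 1 library gave 2 to 7. In TMB against WT the count was 1, and 3 with library totals, 2 with DESeq2, 2 without the GC trend, 4 without WT F4 and vehicle F2, and 0 with only the 2 groups, the replicate block or the pigment epithelium level; leaving out 1 library gave 0 to 3. In TMB against vehicle the count was 0, and 1 with only the 2 groups and 4 without WT F4 and vehicle F2; leaving out 1 library gave 0 to 2. Over all genes, 5697, 1600 and 0 were called in the 3 comparisons, and 9508, 6490 and 2741 without WT F4, 9521, 6665 and 3436 without WT F4 and vehicle F2, 2224, 567 and 0 with the block, 3261, 2654 and 2 without the GC trend, 2861, 1053 and 2402 with only the 2 groups, and 2991, 935 and 0 with the pigment epithelium level. In TMB against vehicle, DESeq2 gave 65, no filter 2 and leaving out TMB F4 3. The lowest counts without 1 library were 2849 (without WT F3) in vehicle against WT and 896 (without WT M1) in TMB against WT. Under library totals the median of all genes was 0.13 in vehicle against WT, with 4204 higher and 1991 lower in place of 2629 and 3068 and 7 members called, and 0.088 in TMB against WT, with 1291 and 507 in place of 757 and 843. Over 9 same-numbered pairs of libraries the correlation of deviations was -0.171 to 0.252, with 3 over 0.1. Pairs with different numbers were not computed, so whether replicate numbers pair the samples cannot be told. The cause of the changes in the counts of calls was not tested.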

Other observations

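Of the 11743 genes whose mean reached 5 CPM, the 5 whose centred log2 levels over the 13 libraries lay nearest to the mean profile of the 9 Müller glia genes were Tns3, Axl, Lrrc75b, Mettl7a1 and H1f0, at root mean square distances of 0.0697 to 0.0799, against a median of 0.278 over all genes. Tns3, which codes for a tensin of cell adhesion sites, had means of 71.2 CPM in WT, 104 in vehicle and 89.2 in TMB. Axl, a receptor kinase, had means of 15.1, 20.98 and 18.9 CPM. Of the members, Glul and Dkk3 lay nearest to their own mean profile, at 0.112 and 0.113, and Apoe lay farthest, at 0.368. The distance is a description over libraries that differ in depth and in the level of GC-rich genes, with no test.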
